A study of Mus musculus with 12 samples.

Results

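The set described here holds 41 genes of mitosis and of the G2/M transition, chosen by name from what their proteins do in dividing cells. Earlier results of these data were known when this set and the further lists were chosen. All 41 had values in the deposited table, which resolves to 12988 genes, and all 41 passed the filter on low values that left 12279 genes for testing. RNA was sequenced from 4 groups of mouse embryonic fibroblasts (MEF, connective tissue cells grown from mouse embryos). These were HSF1 KO MEF treated with LiCl, HSF1 KO MEF without LiCl, WT MEF treated with LiCl and WT MEF without LiCl, with 3 libraries in each group. LiCl, given at 20 mM for 48 h, blocks GSK3β and thereby keeps β-catenin from being degraded. The study asked how far HSF1, the transcription factor of the heat shock response, takes part in the response to β-catenin activation.

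The labels call the mutant cells HSF1 KO, while a legend of the study writes HSF1+/-. Whether the cells of either genotype were 1 clone, how they were made and at which passage they were used is not given. The numbered libraries of a group are called 1 and 2 below, and the library with no number in its label is called unnumbered. Separate cultures are not stated for the 3 libraries of any group, and the p-values therefore measure only the spread between libraries, which may be technical.

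Entry into mitosis is driven by CDK1 bound to A-type and B-type cyclins, which CDC25 phosphatases switch on and which the anaphase-promoting complex (APC/C) ends by marking cyclins and securin for destruction. In between, Polo and Aurora kinases, kinetochores, the spindle assembly checkpoint and motor proteins of the kinesin family attach and separate the chromosomes, and cytokinesis proteins then cut the cell apart. The mRNAs of these proteins are low in resting fibroblasts and rise together late in the cycle, because the DREAM complex holds their promoters silent through CHR elements (cell cycle genes homology regions) and MYBL2, FOXM1 and the CCAAT-binding factor NF-Y later activate them.

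The promoters of the set carried these letters often. A RefSeq window of build GRCm38.p6, from 250 bases before to 50 bases after the gene start that RefSeq gives, was at hand for 34 of the 41 genes, all but Tpx2, Ccna2, Kif20a, Aurkb, Cdc25c, Incenp and Foxm1. For 7 of the 34 (Bub3, Cdca8, Cenpa, Kif2c, Kif4, Mad2l1 and Pttg1) that start lay over 100 bases from the gene's start in the GENCODE annotation, and for Cdca8 and Kif2c by 2394 and 3867 bases inside the gene, so that these windows may not cover the promoter in use. The CHR letters TTTGAA or TTCGAA, read on both strands, occurred in 27 of the 34 (79.4%), against 21.7% of 27025 genes with such a window. The letters CCAAT occurred in 26 of the 34 (76.5%), against 41.1% of all genes, and both motifs together in 24 (70.6%), against 9.65%. The core letters of a heat shock element, GAANNTTC, were found in 3 windows (8.82%), those of Top2a, Ttk and Birc5, against 9.04% of all genes. In Top2a and Ttk this match shared bases with a CHR match. Among the 33 DNA replication and S phase genes with a window, 7 held CHR letters (21.2%) and 21 held CCAAT (63.6%). A match of letters is a description of the window and does not show that a factor binds there.

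Below are the 150 bases from 100 before the gene start for 6 genes that hold both motifs, to show where these lie. Their levels stood apart between the genotypes, but other members that stood as far apart are not printed. Of those, the windows of Birc5 and Nuf2 held neither motif and that of Ccnb1 held no CHR letters. They are written 5′ to 3′ on the strand of the gene, with CHR and CCAAT letters of either strand in capitals. The stretches lie at chr10:69352863-69353012 (minus strand, Cdk1), chr9:70421505-70421654 (minus, Ccnb2), chr7:122159335-122159484 (plus, Plk1), chr4:118437294-118437443 (minus, Cdc20), chr2:164769829-164769978 (plus, Ube2c) and chr11:99024140-99024289 (minus, Top2a).
Cdk1: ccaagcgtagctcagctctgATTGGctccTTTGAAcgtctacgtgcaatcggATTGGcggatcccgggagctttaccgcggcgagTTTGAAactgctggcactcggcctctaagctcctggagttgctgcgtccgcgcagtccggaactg
Ccnb2: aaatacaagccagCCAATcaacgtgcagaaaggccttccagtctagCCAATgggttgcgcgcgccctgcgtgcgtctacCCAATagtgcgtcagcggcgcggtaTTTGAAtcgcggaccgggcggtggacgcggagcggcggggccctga
Plk1: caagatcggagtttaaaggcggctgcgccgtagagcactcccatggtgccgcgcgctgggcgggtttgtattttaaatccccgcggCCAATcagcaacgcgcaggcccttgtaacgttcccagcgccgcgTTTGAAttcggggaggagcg
Cdc20: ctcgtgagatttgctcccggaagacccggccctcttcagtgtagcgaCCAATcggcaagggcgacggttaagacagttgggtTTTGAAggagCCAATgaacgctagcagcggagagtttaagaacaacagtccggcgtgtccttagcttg
Ube2c: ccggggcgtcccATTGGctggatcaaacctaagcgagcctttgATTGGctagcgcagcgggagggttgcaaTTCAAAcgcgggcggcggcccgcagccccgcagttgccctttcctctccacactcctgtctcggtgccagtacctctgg
Top2a: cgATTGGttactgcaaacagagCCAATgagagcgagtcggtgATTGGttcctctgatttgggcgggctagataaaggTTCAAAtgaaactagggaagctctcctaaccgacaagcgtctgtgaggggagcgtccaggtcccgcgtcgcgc

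In these 6 stretches a CHR match lay close to the gene start with 1 or more CCAAT boxes ahead of it. As all 6 printed genes hold both motifs, this does not describe the whole set. Counting the first base at the start as 1, the nearest CHR match began at -15 in Cdk1, 5 in Ccnb2, 31 in Plk1, -18 in Cdc20, -29 in Ube2c and -23 in Top2a. Over all member windows, 27 of 40 CHR matches began between 60 bases before and 40 bases after the start. Bub3, Ect2 and Prc1 have overlapping windows from different RefSeq starts, so the same CHR letters there are counted once per window.

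**Figure D1:**
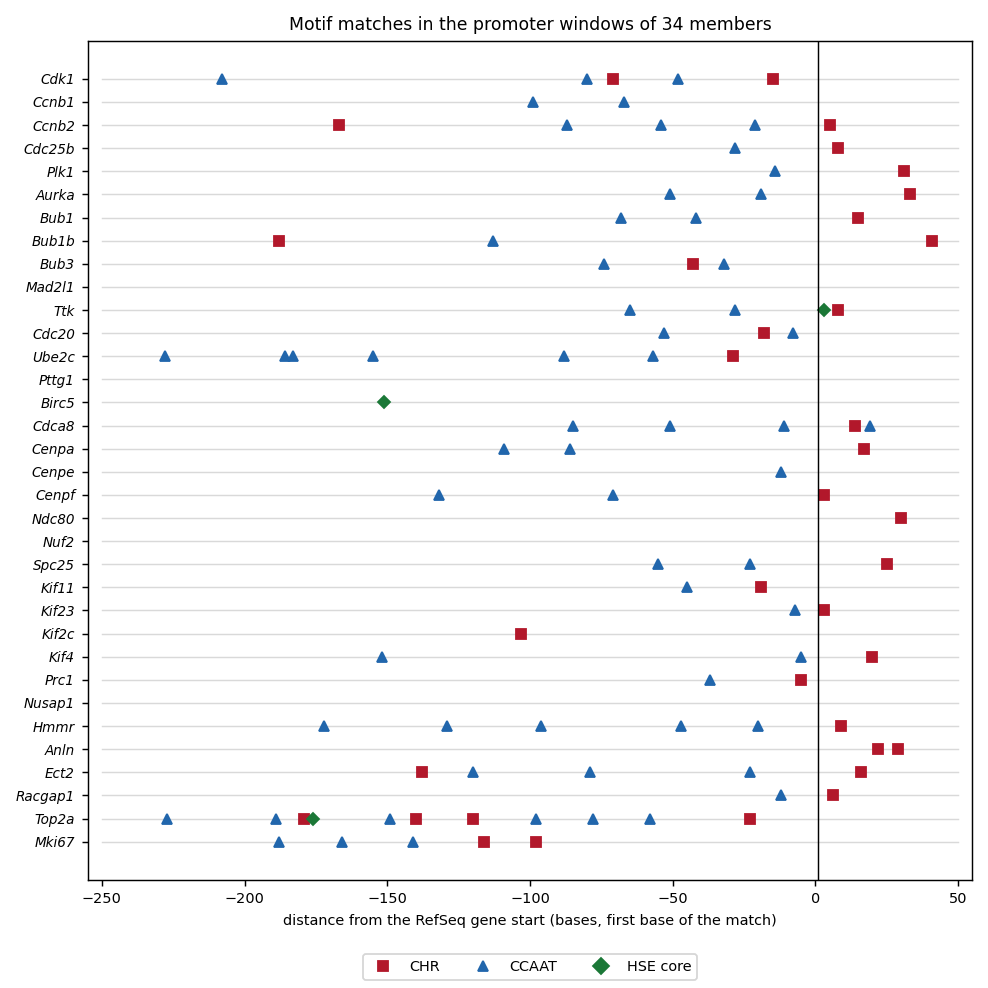
Position of CHR, CCAAT and heat shock element (HSE core) letters in the promoter windows of the 34 members with a window, as the distance in bases of the first base of each match from the RefSeq gene start (vertical line), with 1 window shown per gene. Most CHR matches (squares) lie near the start, and CCAAT matches (triangles) lie mostly ahead of them. Over all windows, 27 of 40 CHR matches lie between 60 bases before and 40 bases after the start, with the overlapping windows of Bub3, Ect2 and Prc1 counted separately.

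Some facts of the whole series bear on these genes. Hsf1 had 3.65, 7.64 and 5.92 FPKM in LiCl-treated HSF1 KO MEF and 0.939, 3.89 and 2.07 FPKM without it, against 14.5, 13.3 and 11.2 FPKM in LiCl-treated WT MEF and 11.1, 7.96 and 8.17 FPKM without it. The knocked-out gene was therefore lower in every HSF1 KO library than in the WT libraries of the same treatment, and what remained came mostly from a transcript of 3 exons (0.738, 3.45 and 1.72 FPKM in HSF1 KO MEF without LiCl). The values are FPKM, fragments scaled to transcript length and library size, summed over the transcripts of a gene. Fibroblast markers were high in every library (10 genes, summed level 2264 to 7401 FPKM), while 3 of 6 epithelial and 1 of 5 endothelial markers were in the table at all. The 13 macrophage markers summed to 101 to 114 FPKM in LiCl-treated HSF1 KO MEF and to 1385 to 1587 FPKM without LiCl, against 40.5 to 44.3 FPKM in LiCl-treated WT MEF and 117 to 124 FPKM without LiCl. Without LiCl all 13 were higher in the HSF1 KO cells, and Ptprc, the pan-leukocyte surface gene, had 3.57 to 3.94 FPKM there and was listed at 0 in the other 9 libraries.

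Expression of mitosis and G2/M genes was first compared between the genotypes without LiCl. Of the 41 members, 37 were higher in the HSF1 KO cells and 0 were lower (limma, adjusted p under 0.05, and also 0 at an unadjusted p under 0.05), against 17.8% higher and 20.4% lower of all 12279 genes tested. The median log2 fold change of the members was 1.33, beside -0.03 over all genes, and the median ratio of the mean levels was 4.10. The libraries of the 2 genotypes did not overlap for 38 members, all higher in HSF1 KO MEF, where 22.5% of all genes were higher without overlap. The 4 members that did not pass were Cdc25b, Bub3, Pttg1 and Spc25. Fold changes here are on the log2(FPKM + 1) scale, which understates the change of low genes, and 19 members had a mean under 1 FPKM in WT MEF. More dividing cells and more mitotic RNA per cell cannot be told apart in bulk RNA.

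The same comparison with LiCl gave 37 members higher and 1 lower in HSF1 KO MEF, against 19.6% and 23.0% of all genes. The same 37 and 1 were the members whose libraries did not overlap, against 24.1% and 28.8% of all genes. The median log2 fold change was 1.88, beside -0.03 over all genes, and the median ratio of the mean levels was 6.48. The 37 higher members were those that were higher without LiCl. The 2 comparisons share no library. The summed level of the set was 461 to 483 FPKM in LiCl-treated HSF1 KO MEF and 266 to 282 FPKM without it, against 148 to 183 FPKM in LiCl-treated WT MEF and 100.1 to 114 FPKM without it. Macrophage markers also moved with the genotype. With LiCl, 6 of the 13 were higher in HSF1 KO MEF, 2 were lower and their median log2 fold change was 0.34 (range -1.52 to 3.07). Without LiCl that median was 3.43. The 13 macrophage markers together still summed to 101 to 114 FPKM in LiCl-treated HSF1 KO MEF and to 40.5 to 44.3 FPKM in LiCl-treated WT MEF. Csf1r, the macrophage growth factor receptor, had 0, 0.877 and 0.356 FPKM in LiCl-treated HSF1 KO MEF and 13.2, 13 and 13.4 FPKM without, against 0.386, 0.296 and 0.478 FPKM in LiCl-treated WT MEF and 1.29, 1.03 and 1.11 FPKM without. With LiCl the genotypes thus overlapped for Csf1r, which does not stand for the list. Of the 13 markers, 5 were higher in LiCl-treated HSF1 KO MEF without overlap and 2 lower. Fibroblast markers moved as well, with 4 of 10 higher and 4 lower in LiCl-treated HSF1 KO MEF and 1 higher and 6 lower without, and the part of either marker list in the result was not tested.

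**Figure D2:**
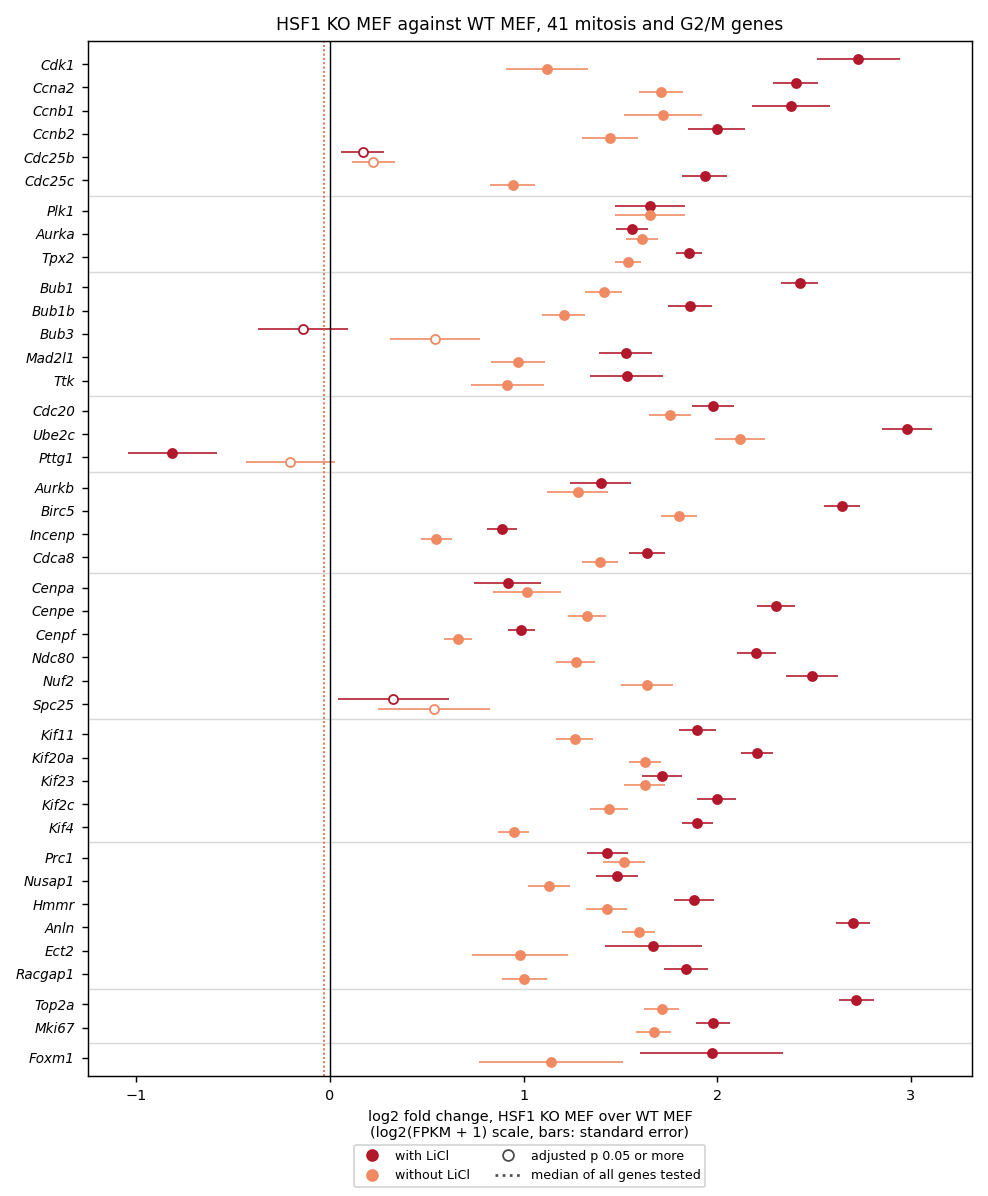
Log2 fold change of each of the 41 members in HSF1 KO MEF over WT MEF, with LiCl (dark red) and without LiCl (light red), on the log2(FPKM + 1) scale with the standard error of the limma fit as bars (3 libraries per group). Filled points passed the adjusted p threshold, dotted lines give the median of all genes tested, and all but Cdc25b, Bub3, Pttg1 and Spc25 lie to the right and are filled in both comparisons.

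The core of the mitotic switch was among the genes set apart by genotype. Counts by role here and in the paragraphs below stand beside 19.6% of all genes higher in HSF1 KO MEF with LiCl and 17.8% without. Cdk1, the kinase that starts mitosis, had 20.9, 18.7 and 17.7 FPKM in LiCl-treated HSF1 KO MEF and 11.6, 7.22 and 12.3 FPKM without LiCl, against 1.25, 2.74 and 2.29 FPKM in LiCl-treated WT MEF and 3.74, 4.77 and 3.87 FPKM without LiCl. The 4 groups did not overlap at all. The log2 fold change between the genotypes was 2.73 with LiCl (standard error 0.21, limma adjusted p = 2.2e-06) and 1.12 without (standard error 0.21, adjusted p = 0.0017). Leaving out the 4 unnumbered libraries together, a setting chosen after seeing the data, gave 0.96 without LiCl (adjusted p = 0.053). Ccnb1, cyclin B1, had 9.49, 10.9 and 8.80 FPKM in LiCl-treated HSF1 KO MEF and 4, 3.58 and 4.91 FPKM without, against 1.14, 0.701 and 1.38 FPKM in LiCl-treated WT MEF and 0.613, 0.153 and 1.04 FPKM without. It was low in all 6 WT libraries, and its mean was 9.07 times as high in LiCl-treated HSF1 KO MEF and 6.93 times as high without.

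Ccna2 (cyclin A2) and Ccnb2 (cyclin B2) followed Ccnb1, with log2 fold changes of 2.40 and 2.00 with LiCl and of 1.71 and 1.45 without. Cdc25c, a phosphatase that activates CDK1, had 4.38, 5.40 and 4.91 FPKM in LiCl-treated HSF1 KO MEF and 1.62, 1.34 and 1.08 FPKM without, against 0.358, 0.673 and 0.606 FPKM in LiCl-treated WT MEF and 0.212, 0.141 and 0.300 FPKM without. It was the lowest of this subgroup in WT MEF, and no group overlapped another. Cdc25b, its sister phosphatase, was the exception at 1.88 to 2.24 FPKM in HSF1 KO MEF and 1.41 to 2.04 FPKM in WT MEF over both treatments. Its log2 fold change was 0.22 without LiCl (adjusted p = 0.14), and leaving out WT MEF library 1 brought it past the threshold at 0.32 (adjusted p = 0.042).

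Plk1, Polo-like kinase 1, had 5.50, 6.72 and 6.17 FPKM in LiCl-treated HSF1 KO MEF and 6.06, 5.27 and 4.66 FPKM without, against 1.55, 0.919 and 1.37 FPKM in LiCl-treated WT MEF and 1.58, 1.02 and 0.558 FPKM without. Its level differed by genotype and the libraries with and without LiCl overlapped within each. The log2 fold change was 1.65 in both comparisons (standard error 0.18). Aurka, the centrosome kinase Aurora A, had 13.1, 13.4 and 12.9 FPKM in LiCl-treated HSF1 KO MEF and 6.73, 5.90 and 6.86 FPKM without, against 3.99, 3.72 and 3.72 FPKM in LiCl-treated WT MEF and 1.62, 1.27 and 1.46 FPKM without. All 4 groups stood apart. Tpx2, which activates Aurora A on spindle microtubules, was higher by 1.85 with LiCl and 1.54 without.

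In the spindle assembly checkpoint, which holds anaphase until every chromosome is attached, 4 of 5 members were higher in HSF1 KO MEF in both comparisons. Bub1, a checkpoint kinase at kinetochores, had 7.80, 7.38 and 8.28 FPKM in LiCl-treated HSF1 KO MEF and 3.33, 2.80 and 3.08 FPKM without, against 0.601, 0.559 and 0.768 FPKM in LiCl-treated WT MEF and 0.659, 0.387 and 0.548 FPKM without. The WT libraries overlapped each other and lay below all HSF1 KO libraries. Bub1b (BUBR1), Mad2l1 (MAD2) and Ttk (MPS1) were higher by 1.86, 1.53 and 1.53 with LiCl and by 1.21, 0.97 and 0.92 without. Bub3, which also has roles outside mitosis and was the most abundant checkpoint gene, did not pass, with 21.6 to 27.7 FPKM in all HSF1 KO libraries and 27.1 to 27.6 FPKM in LiCl-treated WT MEF. In WT MEF without LiCl it had 9.42, 21 and 20.5 FPKM, so that library 1 stood apart. Without LiCl its log2 fold change was 0.54 (adjusted p = 0.094), and it passed at 0.73 without WT MEF library 2 (adjusted p = 0.041) and at 0.71 without the unnumbered WT MEF library (adjusted p = 0.048).

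In the arm that ends mitosis, Ube2c had the largest genotype difference of the set on the log2(FPKM + 1) scale. Ube2c, the ubiquitin-conjugating enzyme of the APC/C, had 45.6, 45.0 and 40.6 FPKM in LiCl-treated HSF1 KO MEF and 23.3, 23.6 and 21.1 FPKM without, against 5.07, 4.02 and 4.95 FPKM in LiCl-treated WT MEF and 3.5, 4.47 and 5.56 FPKM without. Its log2 fold change was 2.98 with LiCl (standard error 0.13, limma adjusted p = 3.2e-08) and 2.12 without (standard error 0.13, adjusted p = 2.8e-07), the largest of the 41 members on that scale in both comparisons. By the plain ratio of means other members were ahead of Ube2c (9.34 with LiCl and 5.03 without), led by Nuf2 (12.8) with LiCl and Ccnb1 (6.93) without. Cdc20, the activator that lets the APC/C reach securin and cyclin B, had 21.7, 26.3 and 21.5 FPKM in LiCl-treated HSF1 KO MEF and 11.2, 10.4 and 9.18 FPKM without, against 5.08, 5.55 and 4.77 FPKM in LiCl-treated WT MEF and 2.07, 2.27 and 2.65 FPKM without. The 4 groups stood apart, and the genotype difference was 1.98 with LiCl and 1.76 without.

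Pttg1, which encodes securin, the inhibitor of separase, ran the other way. It had 18.3, 27.9 and 15.5 FPKM in LiCl-treated HSF1 KO MEF and 26.3, 17.4 and 26.7 FPKM without, against 46.7, 33.1 and 29.7 FPKM in LiCl-treated WT MEF and 27.3, 25.6 and 27.2 FPKM without. With LiCl it was lower in HSF1 KO MEF by a log2 fold change of -0.82 (adjusted p = 0.015), and without LiCl the change was -0.20 (adjusted p = 0.53). The call was lost when 1 library was left out: at -0.63 without WT MEF LiCl library 1 (adjusted p = 0.060), at -0.76 without HSF1 KO MEF LiCl library 1 (adjusted p = 0.050) and at -0.64 without the unnumbered HSF1 KO MEF LiCl library (adjusted p = 0.058). Pttg1 had 7 transcripts in the table, the most of any member.

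All 4 genes of the chromosomal passenger complex, which corrects faulty attachments, were higher in HSF1 KO MEF in both comparisons. Birc5 (survivin) had 29.2, 27.3 and 26.9 FPKM in LiCl-treated HSF1 KO MEF and 13.4, 15.4 and 12.7 FPKM without, against 3.55, 3.95 and 3.33 FPKM in LiCl-treated WT MEF and 2.97, 3.61 and 3.17 FPKM without. The log2 fold change was 2.65 with LiCl and 1.80 without (standard error 0.09 each). The kinase Aurkb (1.40 and 1.28), Cdca8 (borealin, 1.64 and 1.39) and the scaffold Incenp (0.89 and 0.55) differed less, the first value of each with LiCl and the second without.

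Of 6 centromere and kinetochore genes, 5 were higher in HSF1 KO MEF in both comparisons. Cenpe, a kinetochore motor, had 12.5, 11.7 and 14.5 FPKM in LiCl-treated HSF1 KO MEF and 3.07, 3.2 and 3.10 FPKM without, against 1.64, 1.65 and 2.16 FPKM in LiCl-treated WT MEF and 0.604, 0.685 and 0.639 FPKM without. Its 4 groups were separate, with LiCl-treated HSF1 KO MEF far above the rest. Ndc80 and Nuf2, of the complex that binds microtubules, were higher by 2.20 and 2.49 with LiCl and by 1.27 and 1.64 without. Cenpf was higher by 0.99 and 0.66 and the centromeric histone gene Cenpa by 0.92 and 1.02, with and without LiCl in that order. Spc25, a further subunit of the Ndc80 complex, had 20.7, 37.4 and 38.3 FPKM in LiCl-treated HSF1 KO MEF and 6.91, 9.14 and 8.35 FPKM without, against 36.3, 21.5 and 18.8 FPKM in LiCl-treated WT MEF and 7.07, 3.91 and 5.19 FPKM without. It was split by LiCl and not by genotype, where the log2 fold change was 0.33 with LiCl (adjusted p = 0.40) and 0.54 without (adjusted p = 0.18).

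The 5 mitotic kinesins, motors of spindle and midzone, were all higher in HSF1 KO MEF in both comparisons. Kif20a, a motor of cytokinesis, had 9.36, 9.05 and 8.46 FPKM in LiCl-treated HSF1 KO MEF and 7.70, 7.05 and 7.19 FPKM without, against 1.23, 1.25 and 0.992 FPKM in LiCl-treated WT MEF and 1.64, 1.63 and 1.81 FPKM without. Kif4, a chromosome-bound motor, had 4.12, 3.91 and 4.26 FPKM in LiCl-treated HSF1 KO MEF and 2.20, 2.03 and 2.30 FPKM without, against 0.355, 0.400 and 0.346 FPKM in LiCl-treated WT MEF and 0.587, 0.563 and 0.792 FPKM without. In both motors the groups were ordered alike, with LiCl-treated WT MEF lowest. Kif11 (the spindle pole motor Eg5), Kif23 and Kif2c were higher by 1.90, 1.72 and 2.00 with LiCl and by 1.26, 1.62 and 1.44 without.

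Spindle and cytokinesis proteins gave 6 of 6 members higher in both comparisons. Anln (anillin, of the contractile ring) had 20.8, 21 and 22.1 FPKM in LiCl-treated HSF1 KO MEF and 8.18, 8.34 and 8.25 FPKM without, against 2.40, 2.33 and 2.55 FPKM in LiCl-treated WT MEF and 1.98, 1.80 and 2.47 FPKM without. The log2 fold change was 2.70 with LiCl and 1.59 without. Racgap1, of the centralspindlin complex, had 8.19, 8.35 and 10.2 FPKM in LiCl-treated HSF1 KO MEF and 5.53, 6.60 and 5.83 FPKM without, against 1.96, 1.39 and 1.98 FPKM in LiCl-treated WT MEF and 2.54, 2.45 and 2.44 FPKM without. The groups did not overlap, and LiCl-treated WT MEF was again lowest. The midzone bundler Prc1, the spindle genes Nusap1 and Hmmr and the RhoA activator Ect2 were higher by 1.43, 1.48, 1.88 and 1.67 with LiCl and by 1.52, 1.13, 1.43 and 0.98 without.

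Top2a, the topoisomerase that untangles mitotic chromosomes, had 18.1, 18.4 and 21.1 FPKM in LiCl-treated HSF1 KO MEF and 12, 10.9 and 13 FPKM without, against 2.09, 2.08 and 2.02 FPKM in LiCl-treated WT MEF and 2.69, 2.94 and 3.23 FPKM without. The log2 fold change was 2.72 with LiCl and 1.71 without (standard error 0.09 each). Mki67, the proliferation marker Ki-67 that coats mitotic chromosomes, had 4.86, 4.45 and 5.30 FPKM in LiCl-treated HSF1 KO MEF and 5.2, 4.79 and 5.67 FPKM without, against 0.546, 0.389 and 0.537 FPKM in LiCl-treated WT MEF and 0.921, 1.01 and 0.919 FPKM without. The HSF1 KO libraries overlapped each other, and the mean was 9.93 times as high in LiCl-treated HSF1 KO MEF and 5.49 times as high without.

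Foxm1, the transcription factor that activates many of these genes, scattered widely within groups. It had 2.40, 4.74 and 7.41 FPKM in LiCl-treated HSF1 KO MEF and 4.27, 1.19 and 1.42 FPKM without, against 0.864, 0.221 and 0.200 FPKM in LiCl-treated WT MEF and 0.353, 0.444 and 0.323 FPKM without. All HSF1 KO libraries were above all WT libraries, although libraries of 1 group differed several-fold. The log2 fold change was 1.97 with LiCl (standard error 0.37, adjusted p = 0.0014) and 1.14 without (standard error 0.37, adjusted p = 0.032). The call without LiCl was lost when HSF1 KO MEF library 1 (0.74, adjusted p = 0.11), WT MEF library 1 (1.13, adjusted p = 0.077), WT MEF library 2 (1.18, adjusted p = 0.066) or the unnumbered WT MEF library (1.12, adjusted p = 0.075) was left out.

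**Figure D3:**
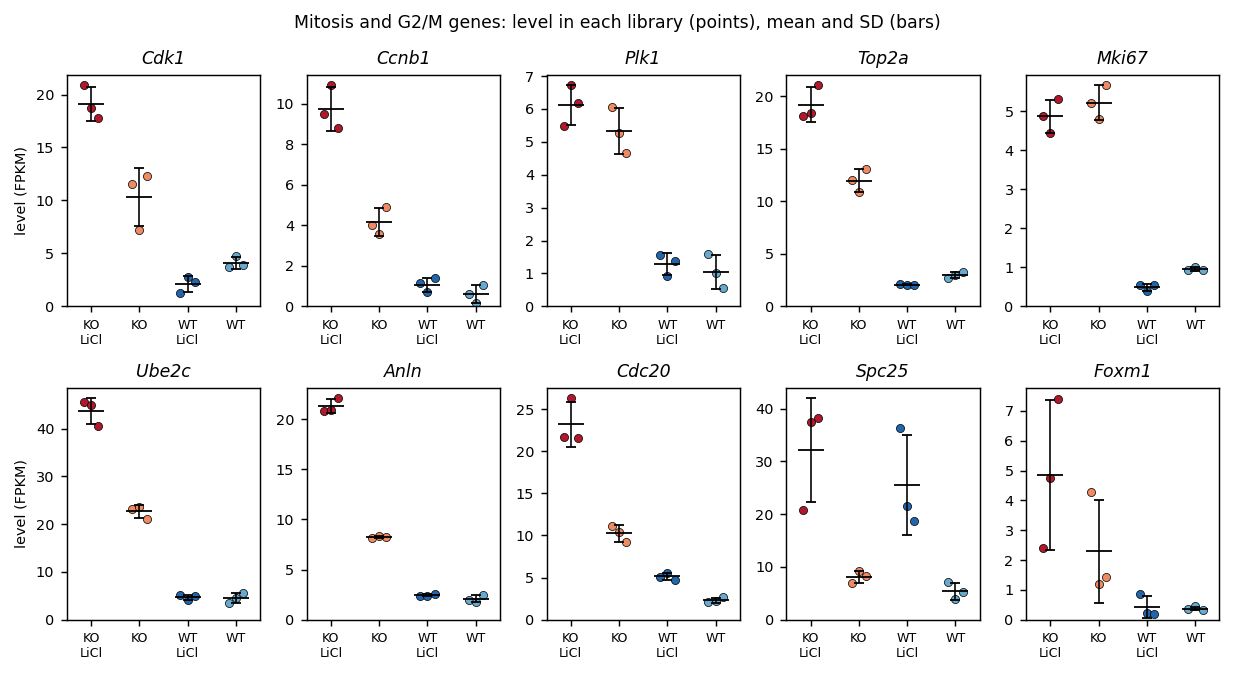
Level in FPKM of 10 members in each library (points), with the mean and SD of the 3 libraries of a group (bars), for LiCl-treated HSF1 KO MEF, HSF1 KO MEF, LiCl-treated WT MEF and WT MEF. Cdk1 and Top2a are highest in LiCl-treated HSF1 KO MEF and lowest in LiCl-treated WT MEF, Plk1 and Mki67 separate by genotype, Spc25 separates by LiCl, and Foxm1 is scattered within groups.

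The response to LiCl was then compared within each genotype. The 2 responses share no library with each other, but each shares its libraries with the genotype comparisons above. In HSF1 KO MEF, 31 of the 41 members rose after LiCl and none fell, against 36.5% risen and 21.1% fallen of all genes tested. Libraries with and without LiCl did not overlap for 31 members, all higher with LiCl, where 39.0% of all genes were higher and 23.1% lower without overlap. At an unadjusted limma p under 0.05 no member fell either (0). Under other scaling some fell at the adjusted threshold: median-of-ratios scaling called 2 lower, Mki67 (-0.25) and Prc1 (-0.31), and quantile normalization 1, Prc1 (-0.28). The median log2 fold change was 0.67, beside 0.16 over all genes. In WT MEF, 11 members rose and 8 fell, against 38.1% and 27.1% of all genes. The median log2 fold change of the members there was 0.10, beside 0.13 over all genes. These medians depend on scaling: median-of-ratios scaling brought the medians of all genes to -0.00 in HSF1 KO MEF and -0.02 in WT MEF, with member medians of 0.52 and 0.03. After LiCl 13 of 13 macrophage and 8 of 10 fibroblast markers were lower in HSF1 KO MEF. In WT MEF 8 of 13 macrophage markers were lower and 2 higher, and 9 of 10 fibroblast markers were lower. The part of these markers in the responses was not tested.

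In HSF1 KO MEF the largest rises were in Spc25 (1.82, standard error 0.29), Cenpe (1.75, standard error 0.10) and Cdc25c (1.33, standard error 0.12), with limma adjusted p of 0.00029, 1.1e-07 and 3.5e-06. Anln rose by 1.27, Bub1 by 1.12, Incenp by 1.11, Cdc20 by 1.10, Cdca8 by 1.08 and Ccnb1 by 1.06. These cover the checkpoint, the passenger complex, the APC/C activator, cyclin B1 and the contractile ring. By role, 6 of 6 centromere and kinetochore genes, 5 of 5 kinesins, 4 of 5 checkpoint genes, 4 of 6 spindle and cytokinesis genes, 4 of 6 CDK1 and cyclin genes and 3 of 4 passenger genes rose. Of all genes tested 36.5% rose, and the roles are too small to be told from that share one by one. The 10 members that did not pass were Ccnb2, Cdc25b, Plk1, Bub3, Pttg1, Aurkb, Prc1, Nusap1, Mki67 and Foxm1. Single libraries decided a few calls: Ect2 (0.84) was lost without HSF1 KO MEF library 1 (0.72, adjusted p = 0.054) or the unnumbered HSF1 KO MEF LiCl library (0.65, adjusted p = 0.057), and Kif20a (0.26) without HSF1 KO MEF library 2 (0.24, adjusted p = 0.061) or HSF1 KO MEF LiCl library 1 (0.23, adjusted p = 0.066). Aurkb (0.35, adjusted p = 0.080) passed without the unnumbered HSF1 KO MEF LiCl library (0.48, adjusted p = 0.029), and Foxm1 (0.85, adjusted p = 0.072) without HSF1 KO MEF library 1 (1.25, adjusted p = 0.0091) or HSF1 KO MEF LiCl library 1 (1.20, adjusted p = 0.018).

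On the log2(FPKM + 1) scale the 3 largest rises in WT MEF were in Spc25 (2.03, standard error 0.29), Aurka (0.97, standard error 0.08) and Cdc20 (0.88, standard error 0.11). Their limma adjusted p were 9.6e-05, 1.7e-06 and 3.1e-05. Cdca8, Incenp, Cenpa, Cenpe, Kif23 and Bub3 also rose, by 0.69 to 0.83, and Bub1b and Cdc25c by 0.31 and 0.34. The 8 that fell were Cdk1 (-0.76), Mki67 (-0.39), Ccnb2 (-0.39), Top2a (-0.37), Racgap1 (-0.33), Kif20a (-0.32), Kif4 (-0.27) and Nusap1 (-0.27). In plain ratio of means, Cdk1 with LiCl was at 0.507 and Mki67 at 0.516 of the untreated level.

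Several of the smaller calls in WT MEF rested on single libraries. The number that fell was 4 without the unnumbered WT MEF library and 5 without WT MEF library 2. Kif4 was lost without the unnumbered WT MEF library (-0.20, adjusted p = 0.051), and Nusap1 without any of 10 libraries (-0.27 to -0.17, adjusted p = 0.056 to 0.19), those being all but libraries 1 of WT MEF with and without LiCl. Ccnb2 was lost without WT MEF library 2, the unnumbered WT MEF library, WT MEF LiCl library 2 or the unnumbered WT MEF LiCl library (-0.39 to -0.30, adjusted p = 0.075 to 0.13). Racgap1 was lost without any of the 3 WT MEF libraries or without WT MEF LiCl library 2 (-0.34 to -0.23, adjusted p = 0.051 to 0.11). Among the rises, Bub1b was lost without WT MEF library 1, the unnumbered WT MEF library or WT MEF LiCl libraries 1 or 2 (0.24 to 0.31, adjusted p = 0.071 to 0.12), and Cdc25c without WT MEF library 1 or 2, WT MEF LiCl library 2 or the unnumbered WT MEF LiCl library (0.28 to 0.34, adjusted p = 0.059 to 0.093). The rise of Bub3 was 0.74 with all libraries and 0.38 without WT MEF library 1. Anln (0.25), Ccnb1 (0.59) and Hmmr (0.31) passed as rises without the unnumbered WT MEF library, and Nuf2 (-0.39) as a fall without WT MEF LiCl library 2. Cdk1, Mki67, Top2a and Kif20a kept their falls whichever library was left out.

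Whether the 2 genotypes responded differently was tested by the difference of the responses, HSF1 KO MEF minus WT MEF. For 21 of 41 members the response was higher in HSF1 KO MEF and for 0 lower (limma interaction, and also 0 at an unadjusted p under 0.05), against 16.1% and 15.3% of all genes. The median difference was 0.56, beside 0.01 over all genes. The difference came about in several ways, and how many of all genes showed each of these patterns was not counted. Falls in WT MEF were less frequent among the members (19.5%) than among all genes (27.1%). In 5 members, Cdk1, Top2a, Kif20a, Kif4 and Racgap1, LiCl lowered the level in WT MEF and raised it in HSF1 KO MEF. In 12, Anln, Birc5, Bub1, Ccna2, Cenpf, Hmmr, Kif11, Kif2c, Ndc80, Nuf2, Tpx2 and Ube2c, the level rose in HSF1 KO MEF and did not pass in WT MEF. In 4, Bub1b, Cdc25c, Cenpe and Incenp, it rose in both and by more in HSF1 KO MEF. Adding 1 FPKM shrinks the response of low genes most, which can widen a difference where WT MEF levels are low. The ratios of means after LiCl were 1.49, 2.50, 2.83 and 1.83 in WT MEF for these 4, in that order. In HSF1 KO MEF they were 2.22, 3.63, 4.13 and 2.29. With 0.1 FPKM added in place of 1, 7 called differences were lost and 1 was gained, and the member median was 0.65 beside 0.02 over all genes.

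The largest differences between the responses were those of Cdk1 (1.61, standard error 0.30), Anln (1.11, standard error 0.12) and Bub1 (1.01, standard error 0.14), with limma adjusted p of 0.0021, 5.8e-05 and 0.00024. Top2a followed with 1.00, Cdc25c with 0.99, Cenpe with 0.98, Kif4 with 0.95 and Ndc80 with 0.93. The response of Cdk1 was 0.85 in HSF1 KO MEF against -0.76 in WT MEF, and that of Top2a 0.64 against -0.37. The smallest called differences, in Tpx2 (0.32), Cenpf (0.33), Incenp (0.34) and Hmmr (0.45), were each lost without any of 8 or 9 of the 12 libraries (adjusted p up to 0.097). Of the 21 called members, 17 kept the call whichever library was left out. Pttg1 (-0.61) passed as lower only without HSF1 KO MEF LiCl library 2 (-0.84, adjusted p = 0.050). Calls as higher were gained in the same way by Ccnb1 (0.88 without WT MEF library 2, adjusted p = 0.022), Ccnb2 (0.69 without WT MEF library 1, adjusted p = 0.023, and 0.66 without HSF1 KO MEF library 1, adjusted p = 0.039), Nusap1 (0.46 without WT MEF library 1, adjusted p = 0.034) and Cdca8 (0.34 without WT MEF LiCl library 1, adjusted p = 0.050). Mad2l1 gained it without WT MEF LiCl library 1, HSF1 KO MEF library 2 or HSF1 KO MEF LiCl library 1 (0.63 to 0.66, adjusted p = 0.029 to 0.047).

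**Figure D4:**
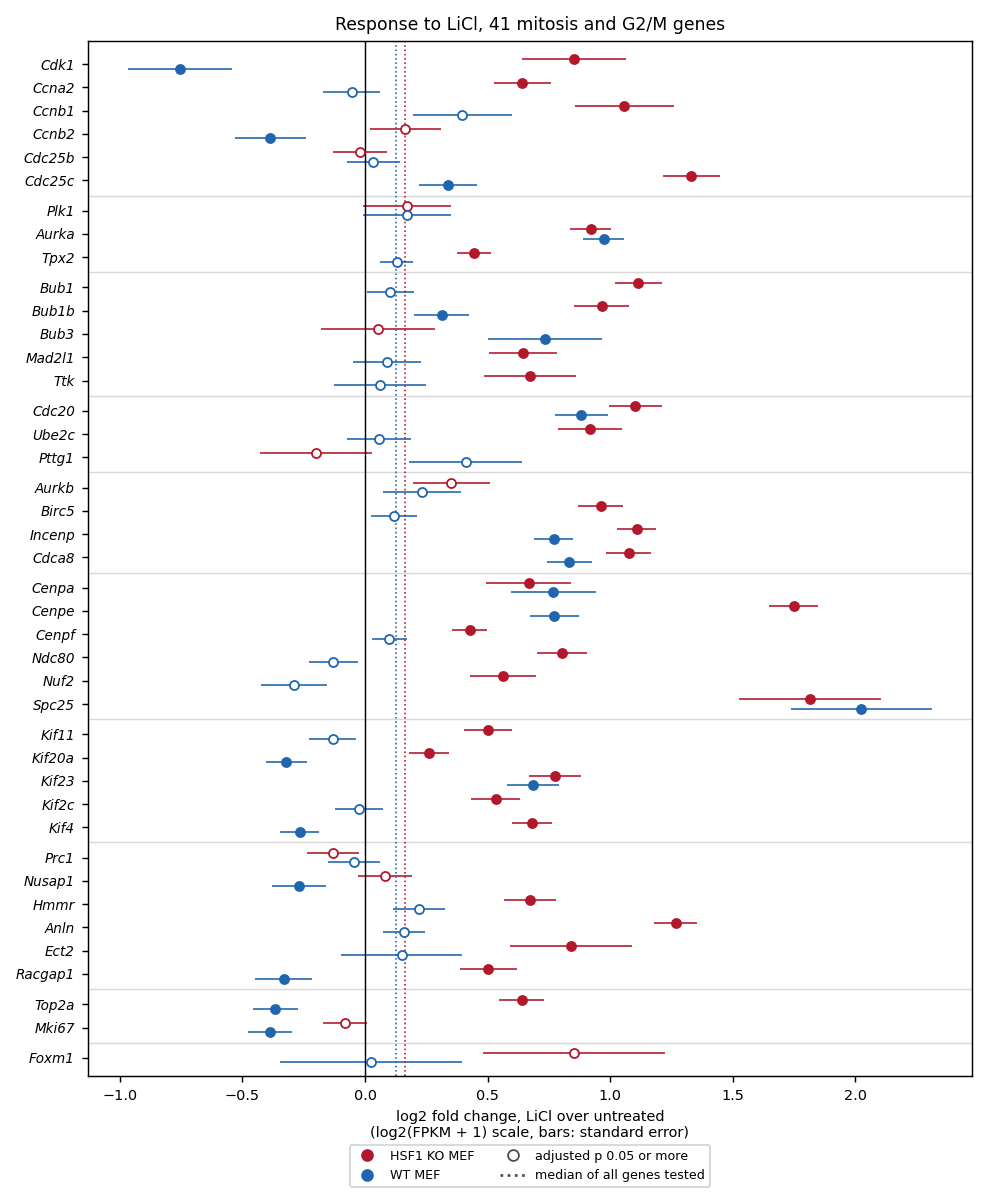
Log2 fold change after LiCl of each of the 41 members in HSF1 KO MEF (red) and in WT MEF (blue), on the log2(FPKM + 1) scale with the standard error of the limma fit as bars (3 libraries per group). Filled points passed the adjusted p threshold and dotted lines give the median of all genes tested. Cdk1, Top2a, Kif20a, Kif4 and Racgap1 lie on opposite sides of 0, and Spc25 lies far to the right in both genotypes.

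For the other 20 members no difference between the responses was called with all libraries. Aurka, Cdc20, Cdca8, Cenpa, Kif23 and Spc25 rose in each, and their differences of -0.21 to 0.24 did not pass. Ccnb1, Ect2, Mad2l1 and Ttk rose in HSF1 KO MEF alone by the test, yet their differences of 0.56 to 0.69 did not pass either. Ccnb2, Nusap1 and Mki67, which fell in WT MEF, had differences of 0.55, 0.35 and 0.31, and Bub3, which rose there, had -0.68, none of them called. Plk1 moved by 0.17 in each (difference -0.00, standard error 0.25), Prc1 by -0.13 in HSF1 KO MEF and -0.05 in WT MEF, and Cdc25b by -0.02 and 0.03. Mki67 and Top2a, both markers of cycling cells, parted in HSF1 KO MEF, where Top2a rose and Mki67 moved by -0.08 (adjusted p = 0.46).

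Further genes of the same machinery, taken from lists of 144 genes of which 137 were tested, followed the members in part. In LiCl-treated HSF1 KO MEF against LiCl-treated WT MEF 80 were higher and 17 lower (58.4% and 12.4%, median 0.60), beside 19.6% and 23.0% of all genes. Without LiCl 67 were higher and 14 lower (48.9% and 10.2%, median 0.35), beside 17.8% and 20.4%. The kinetochore genes gave 22 of 33 higher and 1 lower with LiCl and 20 higher and 2 lower without. Zwilch, of the RZZ complex that recruits the checkpoint, was higher by 2.10 with LiCl and 1.11 without, and the centromere gene Cenph by 2.21 and 1.01. Among condensin subunits, which compact chromosomes, 6 of 8 were higher with LiCl and 4 without, led by Ncapg (1.92 and 0.92). The shugoshin gene Sgo1, a protector of cohesion, was higher by 1.5 and 0.96. The mitotic kinase gene Pbk was higher by 2.66 and 1.56, and the CDK partner Cks1b by 1.72 and 1.00. Subunits of the APC/C itself, which work in all cycling and many resting cells, gave 5 higher and 2 lower of 16 with LiCl and 1 higher and 2 lower without, unlike the members Ube2c and Cdc20.

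After LiCl, the test in HSF1 KO MEF called 80 of these 137 higher and 4 lower (58.4% and 2.92%, median 0.48), beside 36.5% and 21.1% of all genes with a median of 0.16. In WT MEF the count was 46 higher and 17 lower (33.6% and 12.4%, median 0.13), beside 38.1% and 27.1% of all genes with a median of 0.13, so that the rises there were no more frequent than among all genes. Several had larger rises than any member. Kif18b, a kinesin that shortens spindle microtubules, had 21.4, 22.1 and 20.6 FPKM in LiCl-treated HSF1 KO MEF and 2.41, 2.20 and 1.83 FPKM without, against 13.3, 12.9 and 12 FPKM in LiCl-treated WT MEF and 0.556, 0.713 and 0.576 FPKM without. Its rise was 2.83 in HSF1 KO MEF and 3.09 in WT MEF, and that of the motor gene Kifc1 was 2.46 and 2.60.

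Wee1, Ccnf and Gtse1 also rose in both genotypes, and by more in WT MEF. Wee1, the kinase that holds CDK1 inactive, had 12.6, 10.4 and 12.2 FPKM in LiCl-treated HSF1 KO MEF and 4.15, 3.5 and 3.85 FPKM without, against 20.8, 20.6 and 22.1 FPKM in LiCl-treated WT MEF and 2.20, 2.19 and 2.31 FPKM without. It was thus highest in LiCl-treated WT MEF, the group in which Cdk1 was lowest, and the difference of the responses was -1.38 (standard error 0.12, limma adjusted p = 1.1e-05). Ccnf, cyclin F, had 12.2, 14.1 and 11.8 FPKM in LiCl-treated HSF1 KO MEF and 3.67, 3.55 and 3.07 FPKM without, against 17.6, 19.2 and 17.5 FPKM in LiCl-treated WT MEF and 0.940, 1.37 and 1.15 FPKM without. Its difference was -1.53, and that of Gtse1, a regulator of p53 and microtubules in G2, was -0.93.

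Of 8 genes linked to p53 and G2 arrest, 6 were lower in LiCl-treated HSF1 KO MEF and 0 higher (75.0% and 0%). The shares of all genes were 23.0% lower and 19.6% higher. Without LiCl 3 were lower and 2 higher (37.5% and 25.0%), beside 20.4% and 17.8% of all genes. Cdkn1a, the CDK inhibitor p21, had log2 fold changes of -0.43 with LiCl and -0.66 without, both called. Rprm, which arrests cells in G2, rose by 1.21 in HSF1 KO MEF and by 2.19 in WT MEF, and Mdm2, the ubiquitin ligase of p53, by 1.40 and 2.05. Of 18 genes of the DREAM and MuvB complexes and the E2F family, which control the members, HSF1 KO MEF had 10 higher and 3 lower with LiCl, and 5 higher and 3 lower without. Rb1, the retinoblastoma repressor of E2F, was lower by a log2 fold change of -1.06 with LiCl and -0.41 without, and Rbl2 (p130), the pocket protein of DREAM, of -0.58 and -0.64. The activator gene Mybl2 was higher in HSF1 KO MEF by 1.03 with LiCl and 0.81 without. E2f8, also of the E2F family, had the smallest adjusted p of this list in both comparisons and was higher by 1.52 with LiCl and 0.86 without. The part of any of these genes in the member levels was not tested. E2f1, which drives entry into S phase, had 27.0, 27.9 and 24.6 FPKM in LiCl-treated HSF1 KO MEF and 11.7, 11.1 and 10.8 FPKM without, against 13.1, 12.5 and 13.6 FPKM in LiCl-treated WT MEF and 11.8, 12.6 and 11.7 FPKM without. The other 9 libraries lay below all 3 of that group, with a difference of the responses of 1.06 (adjusted p = 1.4e-05).

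DNA replication and S phase genes, the neighbours of the set in the cell cycle, moved in the same direction between the genotypes. Of 40, 30 were higher and 0 lower in LiCl-treated HSF1 KO MEF (75.0% and 0%, median 1.03), beside 19.6% and 23.0% of all genes, and 32 were higher and 1 lower without LiCl (80.0% and 2.5%, median 0.64), beside 17.8% and 20.4%. After LiCl 30 rose and 2 fell in HSF1 KO MEF (75.0% and 5.0%, median 0.56), beside 36.5% and 21.1% of all genes. In WT MEF 18 rose and 8 fell (45.0% and 20.0%, median 0.17), which was near the 38.1% and 27.1% of all genes. Their summed level was 527 to 550 FPKM in LiCl-treated HSF1 KO MEF and 324 to 335 FPKM without, against 291 to 314 FPKM in LiCl-treated WT MEF and 228 to 239 FPKM without. The member medians of 1.88 and 1.33 between the genotypes were larger, a difference for which no test was run.

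**Figure D5:**
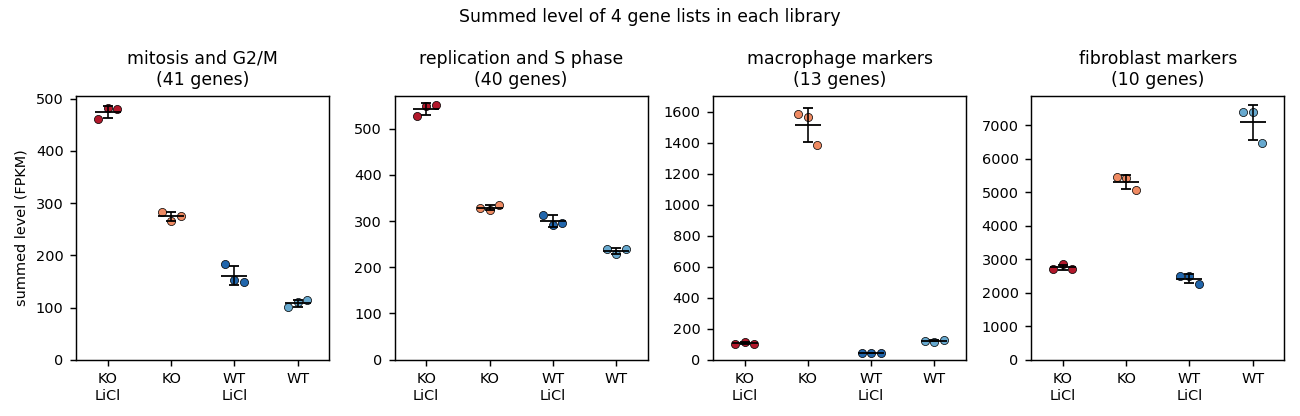
Summed FPKM per library (points, with the mean and SD of 3 libraries as bars) of the mitosis and G2/M genes, the S phase genes, the macrophage markers and the fibroblast markers in LiCl-treated HSF1 KO MEF, HSF1 KO MEF, LiCl-treated WT MEF and WT MEF. The mitosis genes sum to 461 to 483 FPKM in LiCl-treated HSF1 KO MEF and to 100.1 to 114 FPKM in WT MEF, while the macrophage markers peak in HSF1 KO MEF without LiCl at 1385 to 1587 FPKM.

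How the deposited values split a gene over its transcripts limits some members. For Aurka, Kif20a, Racgap1, Tpx2 and Pttg1 the share of each transcript differed between libraries of 1 group while the gene sum stayed closer. Each Kif20a transcript was at 0 in some libraries, but never in the same library as the other. With the highest transcript in place of the sum, the genotype calls of Aurka and Kif20a and the LiCl calls of Aurka, Kif20a and Racgap1 were lost, Tpx2 changed direction after LiCl in HSF1 KO MEF (-0.73, adjusted p = 0.21), and the fall of Cdk1 in WT MEF was -0.26 (adjusted p = 0.16). Genes on the opposite strand overlap Ccna2 (Exosc9), Cdc20 (Elovl1), Kif4 (Pdzd11), Kif20a (Cdc23), Bub3 (Fgfr2), Cdc25b (Spef1) and Nusap1 (Oip5). Strand use in the counting is not given.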

How the data were processed

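Libraries (12, with 3 in each of 4 groups) were stranded and poly(A)-selected. According to the processing notes of the submitters, the tools were HISAT2 2.0.5, StringTie and cutadapt and the build was GRCm38, with no role or order stated. The authors deposited FPKM per transcript, a unit read from the tools and the values because no source names it. Annotation release and counting options: not given in the sources used here. Of 27185 transcripts, 70 matched no entry of GENCODE mouse release 21 and were left out, and the rest were summed to 12988 genes. Low values were not whole multiples of 1 step, so reads could not be recovered, depth is unknown and no counting interval is given.

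The 12279 genes averaging 0.5 FPKM or more over all libraries were tested as log2(FPKM + 1) with limma 3.58.1 (R 4.3.3, trend, 1 fit of 4 group means). Adjustment was by Benjamini-Hochberg over these genes, with a threshold of 0.05. The fit was tested on simulated data. Alternatives were another scaling, pseudocount (0.1), filter, transcript choice, replicate block, the compared groups alone and leaving out each library. Tables used Python 3.11.15, pandas 2.3.3, numpy 2.4.6 and matplotlib 3.10.9. Promoter windows came from RefSeq (GRCm38.p6).

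The members and lists were chosen with earlier results of these data known. All 41 members were named. Values per library were given for Cdk1, Ccnb1, Plk1, Top2a, Mki67, Foxm1, the 3 largest called changes per comparison and members with opposite LiCl calls, with further members, Csf1r and pathway genes chosen after their values were seen. Up to 4 genes per further list and comparison were eligible by smallest adjusted p.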

Additional observations from a re-analysis of the deposited data

Results flagged for a closer look

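For 21 members the response to LiCl differed between HSF1 KO MEF and WT MEF by a test of the difference itself (limma interaction, adjusted p under 0.05). Each difference is given as HSF1 KO MEF minus WT MEF on the log2(FPKM + 1) scale. Among CDK1, its cyclins and phosphatases it was 1.61 for Cdk1, 0.70 for Ccna2 and 0.99 for Cdc25c. In the checkpoint it was 1.01 for Bub1 and 0.65 for Bub1b, and for the Aurora A activator Tpx2 it was 0.32. Among passenger complex and APC/C genes it was 0.84 for Birc5, 0.34 for Incenp and 0.86 for Ube2c. At centromere and kinetochore it was 0.98 for Cenpe, 0.33 for Cenpf, 0.93 for Ndc80 and 0.85 for Nuf2. Among kinesins it was 0.63 for Kif11, 0.58 for Kif20a, 0.56 for Kif2c and 0.95 for Kif4. For spindle, cytokinesis and chromosome proteins it was 0.45 for Hmmr, 1.11 for Anln, 0.84 for Racgap1 and 1.00 for Top2a.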

How the results depend on the processing

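The genotype differences held best. Of 37 members called without LiCl, 36 kept the call whichever library was left out and 34 under every other planned setting, and of 38 called with LiCl these were 37 and 35. Of 31 LiCl calls in HSF1 KO MEF they were 29 and 24, of 19 in WT MEF 13 and 9, and of 21 differences 17 and 10. The 8 falls in WT MEF became 5 with quantile normalization, 4 with the highest transcript, 4 to 8 on leaving out 1 library and 4 without the 4 unnumbered libraries (chosen after seeing the data). The 0 falls in HSF1 KO MEF became 2 with median-of-ratios scaling and 1 with quantile normalization. The 0 lower differences became 0 to 1 on leaving out 1 library. The 1 member lower in HSF1 KO MEF with LiCl became 0 with the highest transcript, 0 to 1 on leaving out 1 library and 0 without the unnumbered libraries. Tpx2 reversed with the highest transcript, to -0.73 after LiCl in HSF1 KO MEF and to -1.31 for the difference. The cause was not tested.

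With the replicate number as a block, 32 members rose and 0 fell in HSF1 KO MEF, against 11 and 6 in WT MEF, the responses differed in 21 and 0, and 36 and 0 (without LiCl) and 37 and 1 (with LiCl) differed by genotype. Deviations of same-numbered libraries correlated at 0.0037 to 0.0868 for number 1 and -0.010 to 0.138 for number 2, against -0.169 to 0.140 between libraries not sharing a number, so these numbers were not taken to pair libraries. The unnumbered libraries deviated together across the groups (0.125 to 0.195). Depth is unknown, and 19 members had a mean under 1 FPKM in WT MEF.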
